A study of Rattus norvegicus with 16 samples.

Results

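The effect of losing estrogen receptor alpha (ERalpha) was examined in the pressure-loaded right ventricle, from 8 of the 16 libraries of the study: 4 of wild-type rats (WT PAB) and 4 of ERalpha -/- rats (KO PAB), chosen by their labels. All animals were female Sprague Dawley rats aged 20 to 21 weeks. Both groups had 10 weeks of pulmonary artery banding, a surgery that narrows the vessel into which the right ventricle ejects and so loads it with pressure. The other 8 libraries, 4 of WT and 4 of KO rats after sham surgery (WT SHAM and KO SHAM), served to estimate the spread and to give the genotype difference without load. RNA came from 10 mg of right ventricle and was sequenced as stranded mRNA libraries. How the mutation was made, which exons it removes, and whether the replicates are separate animals is not given in the sources used here, so a p-value here speaks only of the variation among the sequenced samples, which may be technical.

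ERalpha is a ligand-activated transcription factor encoded by Esr1. It binds estrogen, pairs with itself or with the related receptor ERbeta, and acts on target genes at estrogen response elements or through other bound factors, while part of its signalling starts at the membrane. In the pressure-loaded heart, cardiomyocytes re-express fetal genes such as natriuretic peptides and skeletal actin, fibroblasts lay down matrix, and fuel use shifts away from fatty acids. ERalpha, the receptor BMPR2 and the peptide apelin have been studied together as a protective pathway of the right ventricle.

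Total counts were 27733987 to 32411398 in WT PAB and 25778652 to 29210819 in KO PAB, and mitochondrially encoded genes took 35% to 39.7% and 35.6% to 39.4% of them. The labelled tissue was checked against its markers. The summed level of 10 cardiomyocyte markers was 60400 to 64000 CPM (counts scaled to a common library size) in WT PAB and 46400 to 65500 CPM in KO PAB. Libraries of the same genotype were hardly more alike than libraries of different genotype. The mean correlation of log2 levels across genes was 0.9866 within WT PAB, 0.9876 within KO PAB and 0.9862 between them, and the groups overlapped on the first principal component (26.9% of the variance) and the second (19.5%). 2 libraries stood apart in single groups of genes. WT PAB 1 had levels of several stretch genes in or above the KO range, and KO PAB 3 had the highest summed levels of cytokine, macrophage, mast cell, lymphatic and fibroblast genes of the 8. Some list medians and single genes are therefore given with and without them, though not every gene that depends on them.

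Esr1 itself was low in each KO library, as the labels say it should be. It was at 2.69, 4.04, 3.42 and 5.05 CPM in WT PAB 1 to 4 (70, 125, 107 and 131 counts) and at 0.490, 0.343, 0.403 and 0.248 CPM in KO PAB 1 to 4 (13, 9, 11 and 7 counts). The groups did not overlap, and some Esr1 reads remained in each KO library. The log2 fold change was −3.34 (SE 0.252, 95% interval −3.88 to −2.81), with an adjusted p of 1.30e-05 in edgeR's quasi-likelihood test with Benjamini-Hochberg adjustment. In sham ventricles it was −2.97 (SE 0.242), and the difference between both surgeries was −0.37 (SE 0.336, unadjusted p 0.288). Esr1 passed in 26 of 27 alternative fits. The exception, with an adjusted p of 0.275, was the fit of the 8 banded libraries alone with the replicate number as a block.

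No other gene passed the test under pressure load. Of 13458 genes tested, 1 fell, which is 0.00743%, and none rose. The lowest adjusted p of any gene other than Esr1 was 0.9995. At an unadjusted p below 0.05 there were 608 genes (4.52%), 303 with higher (2.25%) and 305 with lower (2.27%) levels in KO, where 672.9 would be expected if no gene differed. In other edgeR fits this count lay on both sides of that number. It was 406 without WT PAB 4 and 1077 without WT PAB 1. It was 830 in the 8 banded libraries alone and 978 without 3 sham libraries rich in fat and mesothelial RNA. DESeq2 called Slk, Cyr61, Rpn2 and Cbr1 beside Esr1 (650 genes at an unadjusted p below 0.05), and limma-voom with quality weights called Slk and Hamp beside it. The 4 KO and 4 WT libraries did not overlap for 446 genes (3.31%), 227 higher in KO (1.69%) and 219 lower (1.63%).

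The intervals show how large a difference could have been missed. The median log2 fold change over all genes was −0.00 with a median SE of 0.169. For 10758 genes (79.9%) the 95% interval lay wholly within a 2-fold difference, and among the 6875 genes with a mean of at least 10 CPM in the banded libraries it did so for 6542 (95.2%). Within a 1.5-fold difference the shares were 58.7% and 83%. These intervals are per gene and are not adjusted for the number of genes. Most well expressed genes therefore had intervals that leave out a 2-fold difference, while the natriuretic peptide, cytokine and adipocyte genes described below had intervals far wider.

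**Figure D1:**
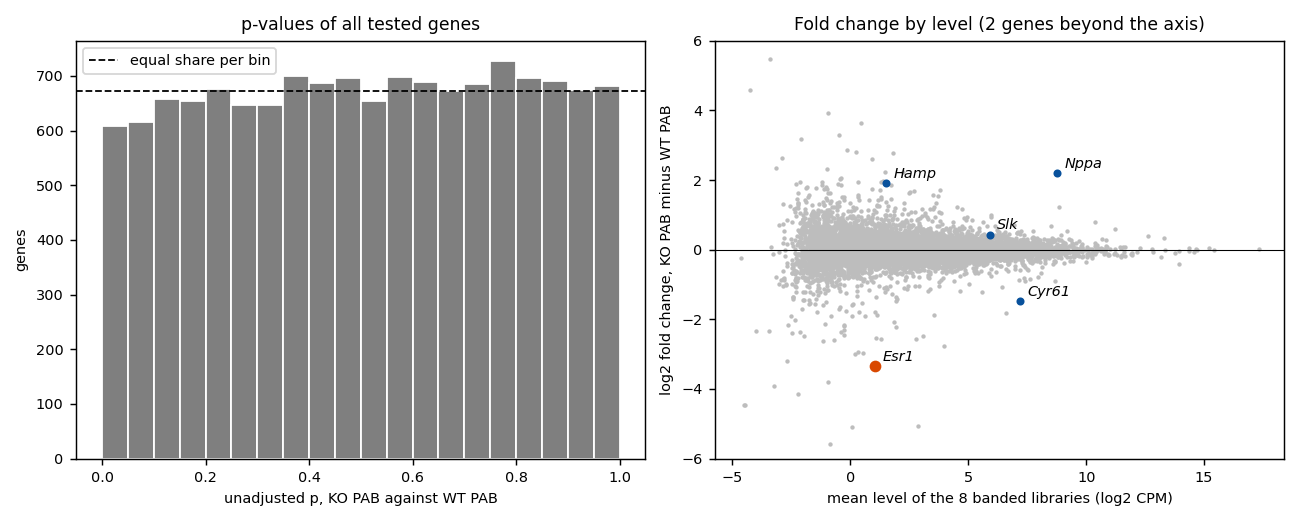
Left, the number of tested genes in each of 20 equal bins of unadjusted p for KO PAB against WT PAB, with the equal share per bin as a dashed line. Right, log2 fold change (KO PAB minus WT PAB) against mean log2 CPM, with 2 genes beyond the axis limits: the lowest bin holds 608 genes, below the dashed line, and Esr1 is the only gene past the test.

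Receptors and receptor cofactors other than Esr1 showed no compensating change that passed the test. Of 16 tested genes in this list 1 fell, Esr1, and none rose, with a median log2 fold change of −0.06. Esr2, which encodes ERbeta, had at most 1 count in any banded library, the progesterone receptor gene Pgr at most 3 and the estrogen-forming aromatase Cyp19a1 none, so these could not be tested. Gper1, the membrane estrogen receptor, was at 1.42, 1.20, 1.09 and 1.20 CPM in WT PAB and 1.09, 0.80, 0.843 and 0.603 CPM in KO PAB. These overlap narrowly, with a log2 fold change of −0.55 (SE 0.301, unadjusted p 0.0871) that did not pass. Among 24 tested estrogen-responsive genes none passed, 13 were above and 11 below 0, and the median was 0.04. The chemokine gene Cxcl12 (113 to 197 CPM in WT, 84.0 to 122 in KO) had the smallest p of these, 0.0167 unadjusted, with a log2 fold change of −0.54 (SE 0.202).

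The BMPR2 and apelin pathway also had no member past the test. Bmpr2 was at 70.2, 72.3, 64.8 and 84.1 CPM in WT PAB and 61.0, 86.4, 74.8 and 79.8 CPM in KO PAB, a log2 fold change of 0.05 with a 95% interval of −0.22 to 0.32. The genotypes thus overlapped in full, and the interval leaves out a 1.5-fold difference in either direction. Apelin (Apln) was at 12.6 to 21.6 CPM in WT and 11.0 to 16.1 CPM in KO, with a log2 fold change of −0.28 (interval −0.69 to 0.13). Its receptor Aplnr varied more, from 3.88 to 13.8 CPM in WT and 4.33 to 8.95 CPM in KO, and its interval of −1.93 to 1.14 decides little. Over the 22 tested members of the pathway the median was −0.07.

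Next come the 12 genes with higher and the 12 with lower levels in KO PAB that had the smallest unadjusted p, a mean of at least 1 CPM and no overlap between the groups. None of them passed the adjusted test, and non-overlap was a condition of the choice. Slk, a kinase that acts on the cytoskeleton, was at 59.7, 50.6, 46.5 and 49.4 CPM in WT PAB and 61.2, 73.1, 75.6 and 68.2 CPM in KO PAB. The gap between WT PAB 1 and KO PAB 1 is small beside the spread within each group. Its log2 fold change was 0.43 (SE 0.0898, unadjusted p 2.22e-04), and it was past the threshold in 2 of 27 alternative fits. Hamp, which encodes the iron hormone hepcidin, was at 2.27, 1.13, 0.415 and 1.08 CPM in WT PAB and 3.13, 4.50, 5.32 and 5.32 CPM in KO PAB, a log2 fold change of 1.90 (SE 0.461, unadjusted p 8.71e-04). All 8 sham libraries had Hamp levels between 0.507 and 1.65 CPM, so the 4 KO PAB libraries were the highest of the 16.

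The other genes higher in KO PAB were mostly small differences. Iffo1 was at 4.01 to 6.07 CPM in WT PAB and 7.00 to 9.08 CPM in KO PAB (log2 fold change 0.70, SE 0.176). Hsd11b1, the enzyme that regenerates active glucocorticoid in tissues, was at 18.9, 21.4, 17.5 and 18.2 CPM in WT PAB and 28.2, 30.2, 35.8 and 22.2 CPM in KO PAB (0.61, SE 0.177). It was also higher in each KO SHAM library (27.6 to 33.9 CPM) than in any WT SHAM library (13.8 to 26.4 CPM). The lysophosphatidic acid receptor Lpar3 (0.84), the intracellular growth factor homologue Fgf12, which modulates sodium channels (0.44), the interferon gamma receptor chain Ifngr2 (0.27) and Rab40b (0.48), Carhsp1 (0.34), Kif16b (0.31) and Npepps (0.30) made up the rest with Tmem119, whose 2.81 had an SE of 0.874 and a KO range of 0.567 to 4.47 CPM.

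Among the 12 lower genes, Cyr61, a matricellular protein gene switched on by stretch and growth factors, differed most. It was at 344, 198, 175 and 154 CPM in WT PAB and at 70.8, 82.1, 78.4 and 79.0 CPM in KO PAB. The KO libraries lay close together and all below the WT range, at a log2 fold change of −1.49 (SE 0.341, unadjusted p 5.84e-04). Without WT PAB 1 the log2 fold change was −1.18. Adcy2, an adenylyl cyclase, was at 1.65, 1.91, 1.53 and 1.74 CPM in WT PAB and 0.791, 0.800, 1.10 and 1.21 CPM in KO PAB (−0.81, SE 0.199). Rgs7, a regulator of G protein signalling (−1.20), Fam78b (−1.09), Isoc2b (−0.66) and the Hippo pathway and junction protein gene Limd1 (−0.63) followed. The secreted kinase Pkdcc (−0.44), the dynein light chain Dnal4 (−0.44), the transcription factor Sp2 (−0.43), the Wnt ligand Wnt5a (−0.37), Leo1 of the elongating RNA polymerase complex (−0.37) and Rpn2, a subunit of the oligosaccharyltransferase (−0.26), differed by less.

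**Figure D2:**
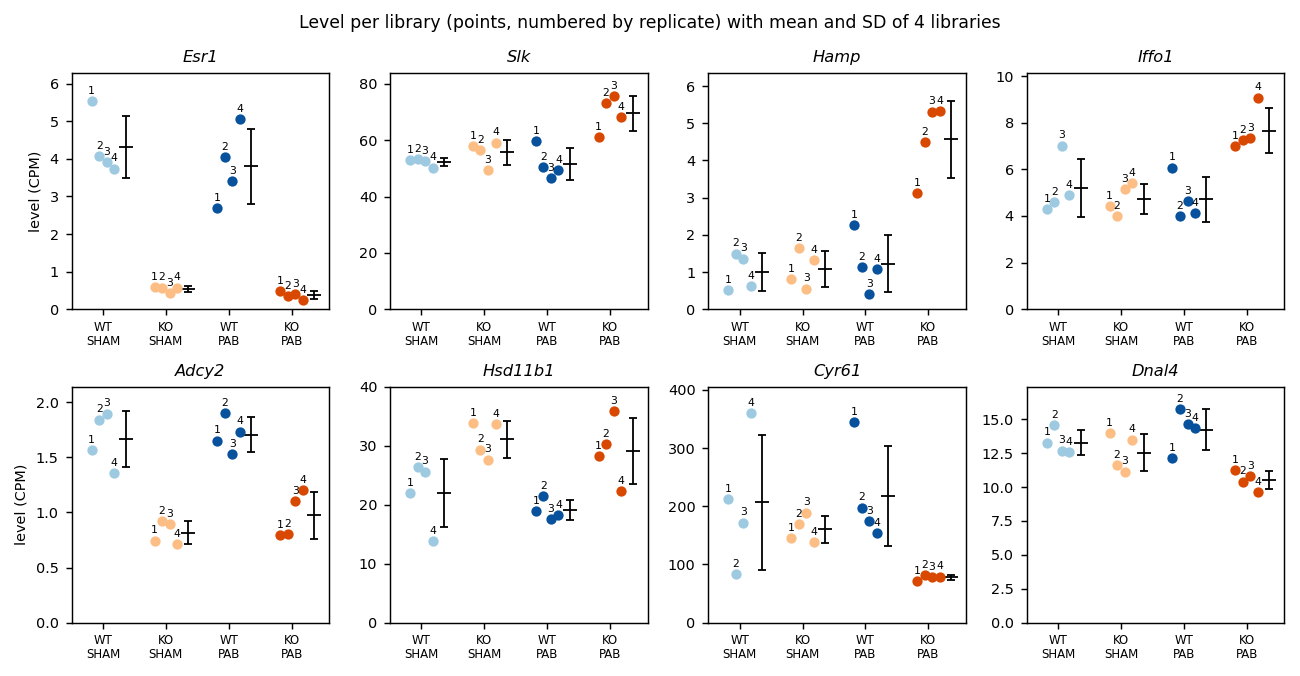
Level (CPM, linear axis from 0) of Esr1 and 7 genes not past the test in each of the 16 libraries, numbered by replicate, with mean and SD of the 4 libraries of a group. Adcy2 and Hsd11b1 separate the genotypes after either surgery, whereas the levels of Slk, Hamp, Iffo1, Cyr61 and Dnal4 overlap between genotypes after sham surgery.

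Set beside the sham libraries, which are other samples, 21 of these 24 genes had the same sign of difference without load, 10 of 12 higher and 11 of 12 lower, where 53.1% of all tested genes did. Of the 445 genes other than Esr1 whose banded groups did not overlap, 68.5% had the same sign in sham. Across all genes the 2 sets of log2 fold changes had a Pearson r of −0.03, given as a description since genes are not independent. The sham libraries also differed in tissue make-up. Summed fibroblast markers were 6000, 4010 and 4760 CPM in WT SHAM 2, WT SHAM 3 and KO SHAM 4, and 2300 to 2520 CPM in the others. This falls unevenly on the genotypes, and its part in the agreement between surgeries was not tested. Adcy2 and Hsd11b1 were the only 2 of the 24 without overlap in the same direction after both surgeries, and with Esr1 they were the only 3 such genes of the 13458 (0.0223%). For Adcy2 the difference in sham was −1.03 (SE 0.201), and averaged over both surgeries it was −0.92 (SE 0.141, adjusted p 0.0649 in edgeR), short of the threshold.

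For the other 22 genes the sham groups overlapped or the difference went the other way. The interaction test in edgeR compares the genotype difference under load with that in sham. Its unadjusted p was below 0.05 for 10 of the 24, among them Iffo1 (0.00425), Hamp (0.0148), Slk (0.0172) and Cyr61 (0.0317). These genes were chosen by their difference under load, which is part of the interaction, so the choice itself favours small values here. No gene of the 13458 passed the interaction test after adjustment (lowest adjusted p 0.9988 in edgeR), and 237 (1.76%) had an unadjusted p below 0.05. In the sham comparison Esr1 alone passed (0.00743%), with 273 genes (2.03%) at an unadjusted p below 0.05 and 169 (1.26%) without overlap. Both counts of small p-values, 237 and 273, lay well below the 672.9 expected if no gene differed. A lack of calls in these tests does not show that no gene differs.

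**Figure D3:**
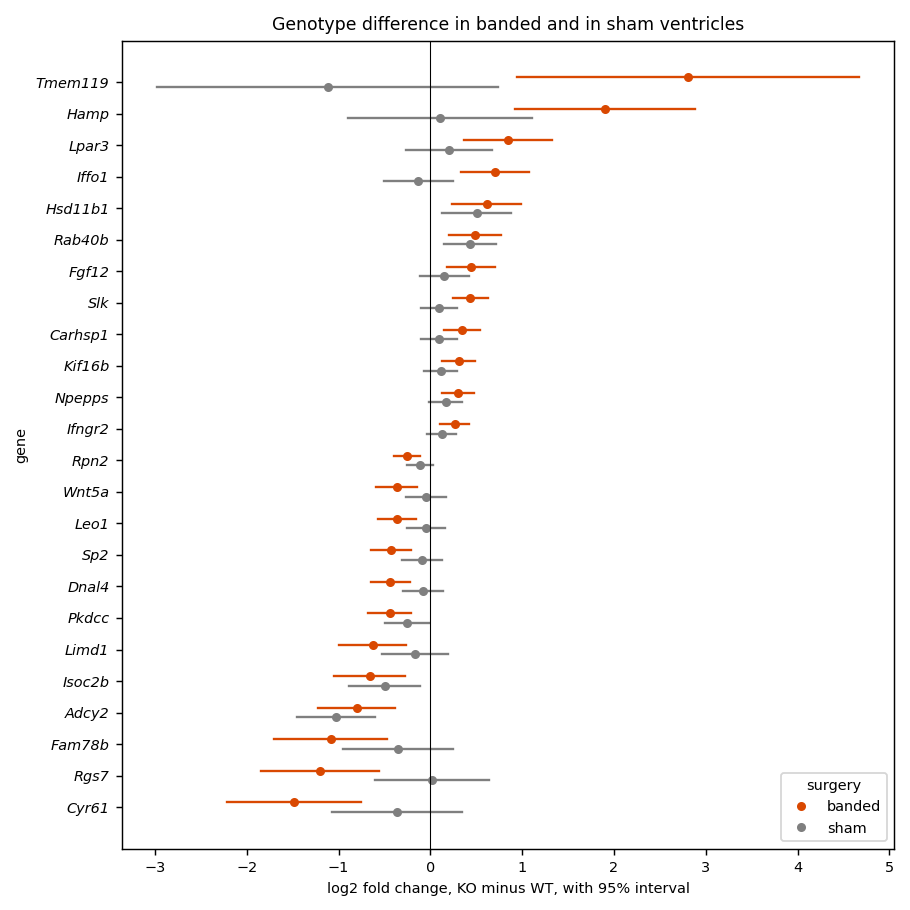
Log2 fold change (KO minus WT, horizontal axis) with 95% interval for the 24 genes with the smallest p among those without overlap, in banded (orange) and sham (grey) ventricles. The banded intervals leave out 0 by the choice of the genes, and 21 of 24 sham values lie on the same side of 0, most with intervals that include it.

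Genes next to Esr1 on its chromosome were looked at because a bred mutant line can carry linked sequence of the founder. The order was that of the RefSeq gene table of assembly GRCr8, counting only genes whose symbol occurs once in the count files. Of the 40 nearest such genes, 20 on each side, 31 were tested and none passed. 3 had an unadjusted p below 0.05 (4.52% of all tested genes did), and 4 did not overlap (3.31% of all), namely Adcy2, Syne1, Tfb1m and Synj2. With so few neighbours these counts are a description. Adcy2 is the gene at place 15 before Esr1 in that order. Syne1, the first of the counted genes after Esr1, which encodes the nuclear envelope protein nesprin-1, had a log2 fold change of −0.33 (SE 0.124). The median over the 31 was −0.03. For Adcy2 and Syne1, an effect of the missing receptor and an effect of linked sequence cannot be told apart in these groups.

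Most stretch and hypertrophy genes had log2 fold changes above 0, and for Nppa and several others the contrast lay against 3 of the 4 WT libraries. Of 23 tested genes none passed, 18 were above and 5 below 0, and the median log2 fold change was 0.32 (0.69 without WT PAB 1), where 49.2% of all tested genes were above 0. Many of these genes vary together between libraries, so their shared sign is not a count of separate results. The 1 member without overlap, against 3.31% of all tested genes, was Cyr61, which was lower in KO (−1.49). Atrial natriuretic peptide (Nppa) was at 462, 42.3, 38.0 and 85.0 CPM in WT PAB 1 to 4 and at 520, 326, 1017 and 1010 CPM in KO PAB 1 to 4. WT PAB 1 lies within the KO range and the other 3 WT libraries far below it. The log2 fold change was 2.20 with a 95% interval of 0.48 to 3.92 (SE 0.802, unadjusted p 0.0159). Without WT PAB 1 it was 3.71 (unadjusted p 1.39e-04, adjusted p 0.136 in edgeR), still short of the threshold.

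For other stretch genes too, WT PAB 1 was the highest WT library. Xirp2, which encodes an actin-binding protein of the intercalated disc, was at 1855, 630, 645 and 735 CPM in WT PAB and 858, 1868, 1970 and 2001 CPM in KO PAB (log2 fold change 0.79, SE 0.329). Ankrd23, a titin-associated protein, was at 118, 14.8, 19.9 and 21.7 CPM in WT PAB and 39.3, 92.4, 94.2 and 105 CPM in KO PAB (0.93, SE 0.628). In both, WT PAB 1 was within or above the KO range and KO PAB 1 was the lowest KO library. The ankyrin repeat protein gene Ankrd1 (0.39), skeletal actin Acta1 (0.58), the slow myosin Myh7 (0.34) and the myosin-binding protein Mybpc2 (1.18) had values of 0.71, 1.14, 0.94 and 1.71 without WT PAB 1, and none passed with or without it. B-type natriuretic peptide (Nppb), at 45.9 to 228 CPM in WT and 109 to 223 CPM in KO, had a wide interval of −1.003 to 2.00. Xirp2 and Ankrd23 were singled out after their values were seen.

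Nppa is also an atrial gene, so the atrial markers are given beside it. Of 11 tested, 5 were above and 6 below 0 with a median of −0.05. Sln, the atrial calcium pump inhibitor sarcolipin, was at 0 to 0.543 CPM in WT PAB and 0.904 to 2.32 CPM in KO PAB, without overlap. The atrial light chains Myl7 (0.922 to 14.1 CPM in WT, 0.753 to 9.96 in KO) and Myl4 (1.95 to 3.62 CPM in WT, 2.64 to 17.4 in KO) overlapped, and Bmp10 had at most 1 count in any banded library. The part of atrial tissue in the Nppa values was not tested.

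Immediate early genes, transcription factors and signalling regulators that respond within minutes to stretch, hormones or handling, lay lower in KO PAB. Of 27 tested genes none passed, 21 were below and 6 above 0, and the median log2 fold change was −0.62, the lowest of the 26 pathway lists. Members of this list vary together between libraries, so their shared sign is not a count of separate results. The summed level of the list was 2060 to 4050 CPM in WT PAB and 1440 to 1740 CPM in KO PAB, with no overlap. A sum weighs the most abundant members most. By the mean log2 level of the members the ranges nearly touched, at 4.83 to 5.64 in WT PAB and 4.53 to 4.82 in KO PAB. 7 members did not overlap, all lower in KO, as did 1.63% of all tested genes: Fos, Jun, Egr1, Dusp1, Btg2, Cyr61 and Arc, some of them singled out after their values were seen. Fos was at 315, 144, 78.4 and 73.1 CPM in WT PAB and 42.4, 48.6, 51.2 and 29.1 CPM in KO PAB (−1.83, SE 0.663), and Jun at 139, 123, 118 and 88.7 CPM against 53.7, 65.1, 49.8 and 56.5 CPM (−1.06, SE 0.386). These 2 encode the parts of the AP-1 dimer, and their unadjusted p-values were 0.0151 and 0.0153.

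The phosphatase Dusp1, which switches off MAP kinases, was at 339, 406, 300 and 229 CPM in WT PAB and 167, 183, 201 and 194 CPM in KO PAB (−0.78, SE 0.279). The growth inhibitor Btg2 was at 400 to 743 CPM in WT and 236 to 332 CPM in KO, and the zinc finger factor Egr1 at 142 to 293 CPM and 94.2 to 140 CPM. WT PAB 1 held the highest value of Fos, Jun, Egr1, Btg2 and Cyr61, and without it the median of the list was −0.30. Socs3, the feedback inhibitor of cytokine receptors, went the other way, at 2.04 to 4.04 CPM in WT and 3.72 to 11.6 CPM in KO (1.34, SE 0.510, unadjusted p 0.0193). Without load the median of the same list was 0.09, a value that rested on WT SHAM 2. In that library the list summed to 464 CPM, against 2720 to 3760 CPM in the other WT SHAM and 1840 to 2870 CPM in the KO SHAM libraries. Without WT SHAM 2 the sham median was −0.29, with 23 of 27 members below 0. Labels give no time from excision to freezing, and its part was not tested.

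**Figure D4:**
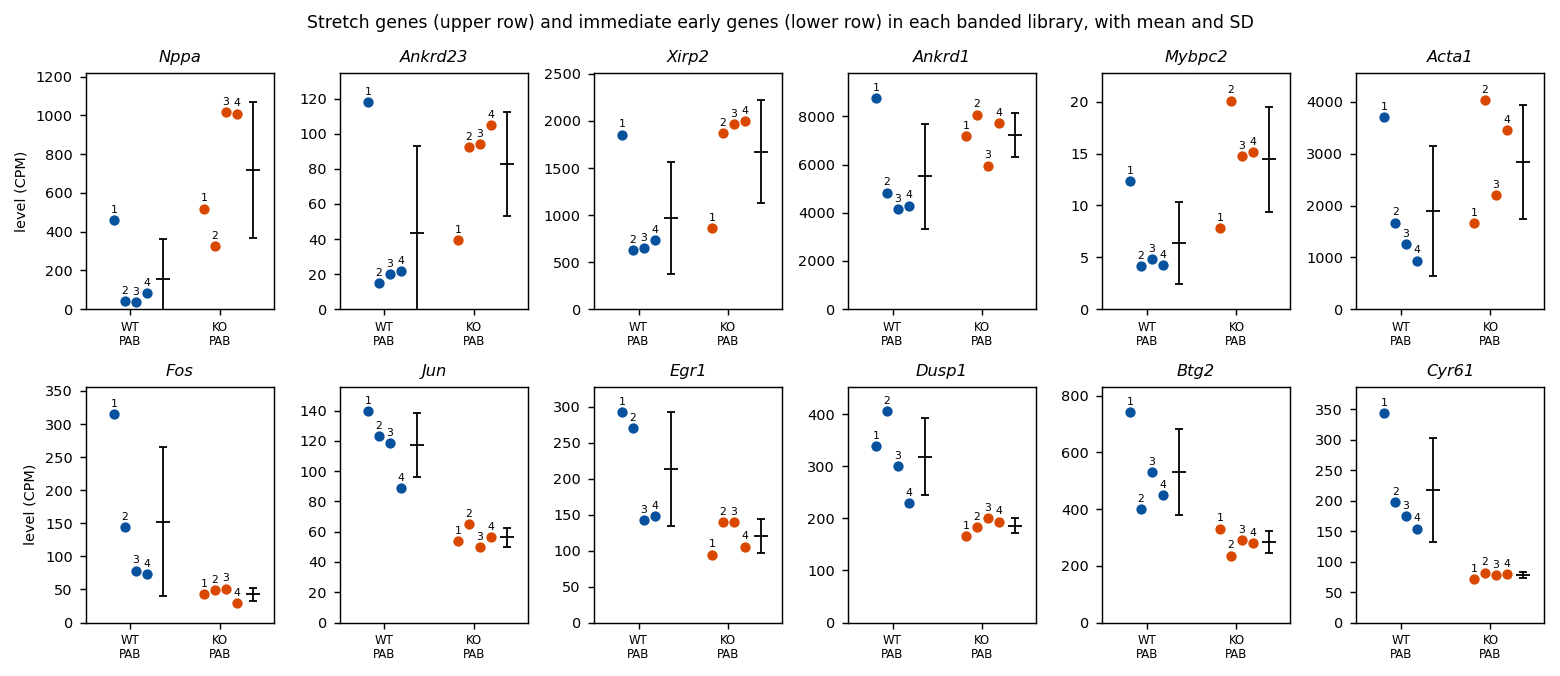
Level (CPM, linear axis from 0) of 6 stretch genes in the upper row and 6 immediate early genes in the lower row in each banded library, numbered by replicate, with mean and SD of 4 libraries (an SD that reaches below 0 ends at the axis). WT PAB 1 has the highest WT level of each gene in the upper row, and all 4 KO libraries lie below all 4 WT libraries in the lower row. Cyr61, in the lower row, is also a member of the stretch list.

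The promoters of 3 of the non-overlapping immediate early genes are shown because these genes lay lower together and because they can be searched for elements that ERalpha or the cAMP-responsive factor CREB can bind. Each is the 250 bases before the transcription start in RefSeq, build GRCr8, read 5′ to 3′ on the strand of the gene. Capitals mark matches on either strand of the cAMP response element TGACGTCA or its part TGACG, which overlap, and of the estrogen response element part AGGTCA.
Dusp1, chr10:17184603-17184852, plus strand: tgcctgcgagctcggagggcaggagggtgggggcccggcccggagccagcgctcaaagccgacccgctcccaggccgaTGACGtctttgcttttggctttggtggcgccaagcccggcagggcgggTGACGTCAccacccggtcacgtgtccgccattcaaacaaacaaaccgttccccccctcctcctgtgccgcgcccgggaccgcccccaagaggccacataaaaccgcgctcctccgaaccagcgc
Btg2, chr13:48087691-48087940, minus strand: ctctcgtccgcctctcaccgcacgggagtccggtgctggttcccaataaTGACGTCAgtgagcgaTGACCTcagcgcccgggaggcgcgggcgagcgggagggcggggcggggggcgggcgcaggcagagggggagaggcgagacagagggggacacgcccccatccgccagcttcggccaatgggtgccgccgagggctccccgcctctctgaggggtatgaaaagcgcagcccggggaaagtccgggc
Cyr61 (now Ccn1), chr2:237225690-237225939, minus strand: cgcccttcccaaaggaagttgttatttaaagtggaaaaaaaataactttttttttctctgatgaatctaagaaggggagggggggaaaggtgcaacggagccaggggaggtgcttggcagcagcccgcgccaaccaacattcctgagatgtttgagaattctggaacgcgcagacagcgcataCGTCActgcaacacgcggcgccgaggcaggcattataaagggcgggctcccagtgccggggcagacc

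Dusp1 and Btg2 each hold a full cAMP response element, 124 and 201 bases before the start, and Cyr61 holds the shorter part 67 bases before it. Btg2 also holds an estrogen response element part 185 bases before the start. Egr1, the other non-overlapping gene with an entry and not shown, holds 2 CArG boxes and 2 matches of TGACG, and neither the full cAMP response element nor AGGTCA. Of the 27 tested immediate early genes 18 had an entry in the promoter table. The full cAMP response element was in 4 of these 18 (22.2%), against 1.59% of all 33469 promoters, and TGACG in 11 (61.1%) against 18.2%. The CArG box, the site of serum response factor, was in 4 (22.2%) against 1.5%. The estrogen response element part AGGTCA was in 1 (5.56%) against 14.1%, and the full estrogen response element, searched as its palindrome with 3 free bases between the arms, in none of them and in 0.0239% of all. Of the 24 genes named above, 21 had an entry, of which none held the full estrogen response element, 2 (9.52%) AGGTCA and 5 (23.8%) TGACG. The shares of the 18 immediate early genes describe the list as chosen, including Socs3, which was higher in KO. They would be the same whatever the genotypes showed. A match describes the letters of this window and is no evidence of binding.

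Excitability and calcium genes held a few members without overlap, against 3.31% of all tested genes. These were 2 of 23 ion channel genes and 1 of 21 adrenergic and muscarinic genes, all lower in KO. In calcium handling they were 2 of 27, both higher. The cyclase Adcy6, through which adrenergic receptors raise cAMP in cardiomyocytes, was at 104, 119, 109 and 135 CPM in WT PAB and 83.9, 81.9, 92.5 and 89.6 CPM in KO PAB (−0.43, SE 0.125, unadjusted p 0.00397). Connexin 43 (Gja1), the gap junction protein of the working myocardium, was at 416 to 485 CPM in WT and 273 to 371 CPM in KO (−0.41, SE 0.180), and the potassium channel Kcna4 at 3.39 to 5.48 CPM and 2.48 to 3.39 CPM (−0.60, SE 0.201). All 3 were lower in each KO library than in any WT library, and none passed the adjusted test. The sodium channel subunit Scn4b (0.49) was higher with overlap. The calmodulin kinase Camk2d was higher without overlap (0.27, 136 to 169 CPM in WT and 172 to 203 in KO). Medians were 0.04 over 23 ion channel genes, −0.04 over 21 genes of adrenergic and muscarinic signalling and −0.01 over 27 genes of calcium handling.

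Core genes of contraction overlapped between the genotypes. The calcium pump Atp2a2 was at 8707 to 10797 CPM in WT PAB and 7492 to 10091 CPM in KO PAB, a log2 fold change of −0.21 (interval −0.57 to 0.15), and its inhibitor phospholamban (Pln) differed by −0.13 (interval −0.54 to 0.28). Both intervals lie within a 2-fold difference. The fast myosin Myh6 was at 13010 to 21580 CPM in WT and 9521 to 18622 CPM in KO (−0.41, interval −0.92 to 0.09). Over 19 sarcomere genes the median was 0.02, and none passed.

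Most genes of fuel metabolism had log2 fold changes slightly below 0, and none passed. All 36 tested nuclear genes of oxidative phosphorylation were below 0, from −0.27 (Ndufs7) to −0.03 (Cox7a1) with a median of −0.11, yet none passed or separated the groups, and each interval lay within a 2-fold difference. These genes vary together between libraries, so their shared sign is not a count of separate results. Their mean log2 level was 8.62 to 8.80 in WT PAB and 8.43 to 8.89 in KO PAB, where KO PAB 1 was the highest and KO PAB 3 the lowest of the 8. Without KO PAB 3 the median was −0.05. Fatty acid genes had a median of −0.13 (28 of 40 below 0), tricarboxylic acid cycle and related genes −0.07 (24 of 32) and glycolysis genes −0.08 (22 of 32). Without KO PAB 3 these medians were −0.09, −0.012 and −0.06. KO PAB 3 and KO PAB 4 also had the lowest summed cardiomyocyte markers, 46400 and 51000 CPM against 59500 to 65500 CPM in the other 6 libraries, and the part of this in the fuel genes was not tested. The cofactor Ppargc1a, which drives mitochondrial genes, differed by −0.04 (interval −0.47 to 0.39), and the mitochondrially encoded genes had a median of 0.01.

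Most matrix genes had log2 fold changes above 0, with very wide errors. Of 41 fibrillar matrix genes 33 were above 0, with a median of 0.21, and none passed. Col1a1 was at 99.0, 166, 82.1 and 65.2 CPM in WT PAB and 58.3, 127, 160 and 139 CPM in KO PAB (0.23, interval −1.07 to 1.53), and Col3a1 differed by 0.42 (interval −0.74 to 1.58). Both collagens were lowest in KO PAB 1 of the 8 libraries. Timp1, the inhibitor of matrix proteases, was at 7.65, 6.20, 3.39 and 3.20 CPM in WT PAB and 10.7, 11.7, 14.9 and 9.00 CPM in KO PAB, without overlap (1.18, SE 0.453, unadjusted p 0.0204). Periostin (Postn) differed by 0.82 (interval −0.88 to 2.52). Without KO PAB 3 the median of the list was 0.06. Fibroblast markers had a median of 0.19, which was −0.13 without KO PAB 3, and summed to 2020 to 3150 CPM in WT PAB and 2100 to 3420 CPM in KO PAB. Their part in the matrix values was not tested.

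In TGF-beta signalling, a pathway of fibrosis, 19 of 26 genes were above 0 with a median of 0.11, and none passed. The ligand Tgfb1 was at 8.65, 9.85, 8.14 and 6.83 CPM in WT PAB and 10.7, 11.0, 10.4 and 11.5 CPM in KO PAB (0.38, SE 0.141, unadjusted p 0.0159), and the ligand Gdf11 was at 10.3 to 12.8 CPM and 13.8 to 17.1 CPM (0.41, SE 0.136). Neither overlapped between genotypes. Tgfb2 followed the stretch genes, at 89.2, 39.2, 16.4 and 20.9 CPM in WT PAB and 37.5, 90.1, 74.3 and 126 CPM in KO PAB (0.98, and 1.68 without WT PAB 1). The laminin chain Lamb2 of the basement membrane was at 427 to 485 CPM in WT and 336 to 417 CPM in KO (−0.34, SE 0.140). Without WT PAB 1 the TGF-beta list had a median of 0.36.

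No vascular gene passed the test. Of 12 endothelial markers 10 were below 0, with a median of −0.15, and of 27 genes of angiogenesis and hypoxia 19 were, with a median of −0.06. Of 7 lymphatic endothelial markers 5 were above 0, with a median of 0.23, which was −0.29 without KO PAB 3. The VEGF receptor Kdr was at 73.4, 93.2, 114 and 112 CPM in WT PAB and 68.8, 83.2, 75.9 and 58.3 CPM in KO PAB (−0.46, SE 0.179). The vessel-stabilizing ligand Angpt1 was at 11.4, 31.3, 34.6 and 61.5 CPM in WT PAB and 19.8, 17.5, 13.5 and 10.2 CPM in KO PAB (−1.19, SE 0.404, unadjusted p 0.0106), and the Notch ligand Dll4 had no overlap, at 22.4 to 31.7 CPM and 15.9 to 21.7 CPM (−0.44, SE 0.186). WT PAB 1 was the lowest WT library for all 3. In these bulk samples fewer cells of a type and less RNA per cell cannot be told apart.

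Inflammatory genes and immune markers had medians above 0 that rested largely on KO PAB 3. Cytokine and complement genes had a median of 0.42 (24 of 31 above 0), macrophage and monocyte markers 0.42 (13 of 15) and mast cell and neutrophil markers 1.01 (8 of 9), and no member passed. Without KO PAB 3 these medians were 0.08, 0.15 and 0.27. The summed level of the macrophage markers was 325 to 395 CPM in WT PAB and 358 to 575 CPM in KO PAB, and that of the mast cell and neutrophil markers 20.0 to 26.3 CPM and 19.0 to 73.9 CPM. The interleukin 1 receptor Il1r1 did not overlap, at 20.7 to 23.6 CPM in WT and 27.4 to 34.3 CPM in KO (0.46, SE 0.188). Interleukin 6 (Il6) was singled out after its values were seen, because it can induce Hamp and Socs3. It was at 0.231 to 2.88 CPM in WT and 0.780 to 8.83 CPM in KO, with overlap (2.24, SE 1.19, unadjusted p 0.0797). Its part in the Hamp and Socs3 values was not tested.

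In insulin and growth factor signalling the median over 31 genes was 0.05, and no gene passed. Pik3r1, the regulatory subunit of PI3 kinase, was at 52.5, 57.4, 52.8 and 57.2 CPM in WT PAB and 44.7, 46.9, 50.9 and 45.6 CPM in KO PAB, without overlap (−0.22, SE 0.0987, unadjusted p 0.0375). The binding protein gene Igfbp3 was at 36.7, 54.7, 29.0 and 56.4 CPM in WT PAB and 12.1, 10.1, 44.0 and 22.2 CPM in KO PAB (−1.001, SE 0.417), with KO PAB 3 inside the WT range. Its difference in sham was −1.13 (SE 0.415), and without KO PAB 3 the difference under load was −1.58.

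Cell cycle genes had a median of 0.28 (18 of 23 above 0), with Ccne1, the cyclin of S phase entry, at 0.193 to 0.388 CPM in WT and 0.640 to 0.745 CPM in KO (1.15, SE 0.418, unadjusted p 0.0149). In the circadian clock the activator Arntl was at 17.0 to 38.5 CPM in WT and 9.14 to 22.6 CPM in KO (−0.91, SE 0.367), and the clock output gene Tef and the repressor gene Per3 differed by 0.44 and 0.94. None of the 20 clock genes passed, and their median was 0.12, which was 0.0036 without WT PAB 4 and changed sign in 5 of 27 alternatives. The chaperone and unfolded protein response list had a median of −0.14, which was −0.01 without WT PAB 4, the library with the highest Hspa5.

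Over all 41 lists, which hold 784 distinct tested genes, 1 gene passed (Esr1), 42 (5.36%) had an unadjusted p below 0.05 against 4.52% of all genes, and 28 (3.57%) did not overlap against 3.31% of all. 20 lists had a median within 0.1 of 0, 14 a higher and 7 a lower one. Members of a list can vary together between libraries, so no sign count above is a count of separate results. The share of listed genes that separated the genotypes was thus near that of all genes.

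**Figure D5:**
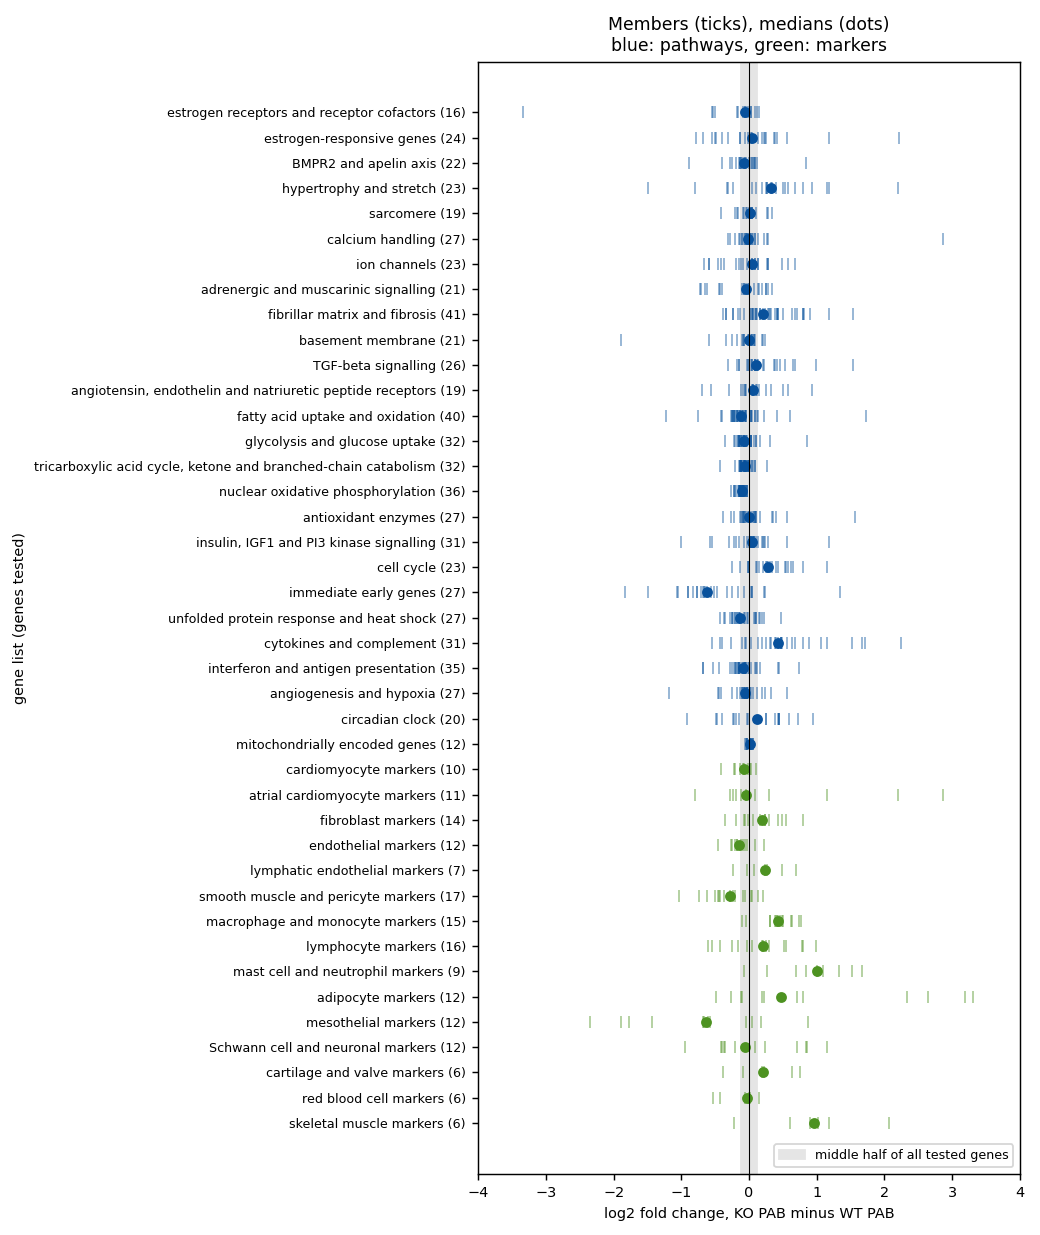
Log2 fold change (KO PAB minus WT PAB, horizontal axis) of the tested members of each of 41 gene lists as ticks, with the list median as a dot, blue for pathways and green for cell type markers, over a grey band that spans the 25th to 75th percentile of all tested genes (−0.12 to 0.12). The immediate early genes have a median of −0.62 and the stretch genes of 0.32, and single ticks reach 3.30 (Adipoq) and −3.34 (Esr1).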

How the data were processed

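The deposited values are expected counts per gene symbol and library, whole numbers in 16 files with 32754 entries each. Per the submitters' processing notes the authors used STAR 2.5.3a, RSEM 1.3.0 and build Rnor_6.0. The annotation, the strand setting and how estimates became whole numbers are not given in the sources used here. 274 symbols occur more than once and were kept apart and left out of lists.

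The KO and WT libraries were compared by edgeR 4.0.16, run under R 4.3.3 (TMM scaling, filterByExpr with a minimum count of 10, robust quasi-likelihood fit of the 4 group means over all 16 libraries), which left 13458 genes. A gene passed at a Benjamini-Hochberg adjusted p below 0.05. The SE is the log2 fold change over the root of F, and intervals use the moderated degrees of freedom. The procedure was tested on simulated data.

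Alternatives tried were DESeq2 1.42.0, edgeR with RLE scaling, limma-voom with and without quality weights (limma 3.58.1), other filters, the banded libraries alone, a replicate block, a fit that omits 3 sham libraries rich in fat and mesothelial RNA, and each library left out. A block in the 8 banded libraries was added after seeing the data. No 2 libraries of a group agreed within sampling noise (chi-square per degree of freedom 19.2 to 65.7).

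Members, lists and rules were chosen with earlier results of these data known. Genes named are those past the test, up to 12 per direction with the smallest p, no overlap and at least 1 CPM, a fixed set of 20 heart and signalling genes, and up to 3 per list by p. Promoters came from RefSeq (GRCr8), for which only the 250 bases before the start were used. The result for 1 listed gene is not reported here.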

Additional observations from a re-analysis of the deposited data

Results flagged for a closer look

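In groups of 4, a value was picked out where its gap to the nearest of the other 3 took more of the group's range than Dixon's 95% critical value for 4 samples. Over the 150 named genes and both banded groups this held for 22 of 300 cases. For independent, normally distributed values about 1 in 20 would be picked out. The named genes share the same libraries and many were chosen by their values, so the 22 cannot be set against that rate. WT PAB 1 accounted for 7, KO PAB 1, 3 and 4 for 4 each, WT PAB 4 for 2 and KO PAB 2 for 1.

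WT PAB 1 had the highest WT PAB level of Nppa (462 CPM, the others 38.0 to 85.0), Ankrd1 (8760, the others 4150 to 4830), Mybpc2 (12.3, the others 4.13 to 4.82), the metallothionein Mt2A (14.3, the others 2.33 to 3.47) and the actin-binding Synpo2 (211, the others 159 to 164). It had the lowest WT level of the laminin chain Lamb1 (124, the others 138 to 139) and of the angiopoietin receptor Tek (61.1, the others 76.2 to 78.3). WT PAB 4 had the highest levels of the endoplasmic reticulum chaperones Hspa5 (930, the others 474 to 505) and Hsp90b1 (376, the others 215 to 221).

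KO PAB 3 had the highest KO PAB levels of the growth factor Igf1 (39.3 CPM, the others 5.84 to 9.43), the atrial light chain Myl4 (17.4, the others 2.64 to 3.97), the lymphatic receptor Lyve1 (44.4, the others 18.2 to 19.6) and the adipocyte hormone Adipoq (5.21, the others 0 to 0.0377). KO PAB 1 had the lowest KO level of Myh7 (6790, the others 12200 to 13200) and Tek (50.5, the others 64.4 to 65.7) and the highest of Pkm (764, the others 620 to 640) and Fam78b (3.77, the others 2.90 to 2.94).

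KO PAB 4 had the highest KO level of Iffo1 (9.08, the others 7.00 to 7.33), the lowest of the class I gene RT1-A2 (6.31, the others 22.3 to 23.2), and values near the detection limit for Bnc1 (0.106, the others 0) and Ahsp (0.39, the others 0.0367 to 0.0762). KO PAB 2 had the highest Lama2 (204, the others 175 to 180).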

How the results depend on the processing

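The count under load was 1 gene, Esr1, in 24 of 27 alternatives. DESeq2 gave 5 (Esr1, Slk, Cyr61, Rpn2 and Cbr1, the last with reads in a single banded library), and limma-voom with quality weights gave 3 (Esr1, Hamp and Slk). The cause of these added calls was not tested. The number of genes at an unadjusted p below 0.05 was 406 to 1077 with 1 library left out, highest without WT PAB 1, 978 without 3 sham libraries rich in fat and mesothelial RNA and 1878 with quality weights. The sham count stayed at 1 and the interaction count at 0 in each alternative in which they were counted. They were not counted with quality weights or without mitochondrially encoded genes.

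The replicate numbers did not pair the libraries: the correlations of same-numbered deviations were −0.008, 0.032, −0.2 and 0.026, and 3 of 16 libraries correlated best with their own number. With the replicate block over all 16 libraries 1 gene passed and 588 had an unadjusted p below 0.05. With the block in only the 8 banded libraries 0 passed in edgeR (775 unadjusted), and Esr1 had a log2 fold change of −3.31 and an adjusted p of 0.275.

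Of 4019 values of named genes in alternatives, 18 changed sign, in 12 genes, some of them close to 0 or at low counts. Over all alternatives, the log2 fold change of Bmpr2 was −0.019 to 0.14 and of Ppargc1a −0.31 to 0.076. It was −0.014 to 0.13 for Mt-atp8, −0.016 to 0.12 for Mt-nd3 and −0.14 to 0.0033 for Mt-nd4. It was −0.048 to 0.38 for Dpt, −2.21 to 4.66 for Adipoq, −0.88 to 1.36 for Chad and −0.61 to 1.32 for Comp, each lowest without KO PAB 3. It was −1.19 to 0.24 for Fmod, which was 0.20 with quality weights, −1.70 to 0.12 for Ahsp and −0.047 to 0.38 for Alas2. Of the 41 lists 20 had a median that changed sign in some alternative, among them adipocyte (−0.33) and fibroblast markers (−0.13) without KO PAB 3. Depth limits low genes most: the 95% interval lay within a 2-fold difference for 79.9% of all tested genes and for 95.2% of those at 10 CPM or more.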

Other observations

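No marker of the cell types described here passed the test in edgeR, and all named here except Tubb3 overlapped between the genotypes. Smooth muscle and pericyte markers had a median log2 fold change of −0.28 (13 of 17 below 0), with the pericyte potassium channel Kcnj8 at 22.5, 23.6, 25.4 and 19.7 CPM in WT PAB and 14.2, 19.8, 16.1 and 16.9 CPM in KO PAB (−0.45, SE 0.121, unadjusted p 0.00218). Skeletal muscle markers had a median of 0.96 (5 of 6 above 0), led by Mybpc2 and the embryonic myosin Myh3 (0.0319 to 0.500 CPM in WT, 0.490 to 2.09 in KO), while Myod1 and Myog had at most 1 count in any banded library. Mesothelial markers had a median of −0.64 (9 of 12 below 0), which was 0.011 in the fit of the 8 banded libraries alone, at summed levels of 24.5 to 31.0 CPM in WT PAB and 23.4 to 31.8 CPM in KO PAB. In the nerve and Schwann cell list the neuronal tubulin Tubb3 did not overlap, at 0.154 to 0.500 CPM in WT and 0.603 to 0.791 CPM in KO (0.83, SE 0.354).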
